A study of Arabidopsis thaliana with 18 samples.

Results

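Total RNA from leaves of the Arabidopsis thaliana double mutant upf1-3 pad4-1 was compared with total RNA from leaves of its control, pad4-1, over all 34212 loci of the deposited gene table. The comparison used 6 of the 18 libraries of the series, 3 of each genotype and labelled as biological replicates, and the other 12 libraries hold RNA bound to single ribosomes or to several. Both genotypes are in the Col-0 background and both carry pad4-1, so neither group is wild type and the contrast is that of upf1-3 in plants that already lack a working PAD4. The plants spent 10 days on half-strength MS medium with 1% sucrose and then grew on soil to an age of 3 weeks, at 22 °C with 16 h of light and 8 h of dark, and had no other treatment. Where the upf1-3 insertion lies, the hour of harvest and whether a replicate was a single plant or a pool are not given in the sources used here.

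UPF1 is the helicase on which nonsense-mediated mRNA decay (NMD) turns, the pathway that removes transcripts on which a ribosome stops too early. Textbook features that mark a transcript for NMD in plants are an exon junction well downstream of the stop codon, a long 3′ untranslated region (UTR) and an upstream open reading frame (uORF) in the 5′ UTR. PAD4 acts with EDS1 in salicylic acid-dependent immunity, and loss of PAD4 is known to relieve part of the stunting and autoimmunity of strong NMD mutants.

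The 6 libraries held between 50919005 and 81528839 estimated counts. Levels are given as CPM, the count of a gene normalised to its library's total after TMM scaling, a log2 fold change is mutant over control from edgeR's quasi-likelihood fit with its standard error (SE), and a gene is called, and said to have risen or fallen, at a Benjamini-Hochberg adjusted p under 0.05 over the 20302 genes tested. Chloroplast genes took 34.1%, 42.9% and 46.0% of counts in control leaves and 54.6%, 43.8% and 56.2% in the mutant (exact permutation p = 0.2). Of the leaf markers, the 4 mesophyll genes summed to between 23833 and 29142 CPM in control leaves and between 8338 and 14065 CPM in the mutant, while the 6 root markers stayed at or below 1.205 CPM and the 5 seed markers at or below 0.206 CPM in every library, with 1 gene of each of these lists at 0 throughout. Markers of vascular tissue (134 to 153 CPM in the control, 75.2 to 109 CPM in the mutant) and of the stomatal lineage (12.7 to 17.64 CPM against 1.09 to 10.00 CPM) were present and lower in all mutant libraries, and the part of tissue make-up in the results below was not tested. In bulk leaf RNA, fewer cells of a type and less RNA per cell cannot be told apart.

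The targeted gene was measured first. UPF1 (AT5G47010, listed as LBA1 in the reference annotation) stood at 61.7, 76.1 and 69.9 CPM in control leaves and at 39.3, 24.8 and 36.0 CPM in the mutant. All mutant libraries lay below all control libraries, so the labels and the gene go together, and reads from the locus remained at 48.2% of the control level. The log2 fold change was -1.05 (SE 0.24, edgeR adjusted p = 0.0159). Leaving out control replicate 1, 2 or 3 ended that call (edgeR adjusted p = 0.0504, 0.0784 and 0.0559). Because the position of the insertion is not known here, these counts cannot show how much intact transcript was left. PAD4, carrying the pad4-1 allele in both groups, gave 1.78, 1.33 and 1.31 CPM in control leaves and 3.57, 40.5 and 4.42 CPM in the mutant. Its mutant libraries were all higher, and replicate 2 stood far above the other mutant libraries. The log2 fold change of 3.45 (SE 0.94, edgeR adjusted p = 0.0298) became 1.46 without mutant replicate 2 (adjusted p = 0.0135), and its call was lost without control replicate 1 (0.102), 2 (0.105) or 3 (0.102).

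Across the transcriptome, 3107 genes rose and 2531 fell, which is 15.3% and 12.5% of the genes tested, or 27.8% together. Among called genes the median rise was 3.45-fold and the median fall 2.48-fold. Leaving out a control library had the largest effect on these counts: 1381 genes rose and 910 fell without control replicate 1, 1241 and 806 without replicate 2, and 1611 and 1310 without replicate 3. Leaving out a mutant library gave between 3211 and 3430 higher and between 2354 and 2679 lower genes. In all 6 of these fits, 1128 genes were called higher and 712 lower. Libraries of both genotypes did not overlap for 47.9% of the genes tested, with the mutant above in 24.1% and below in 23.8%. The 3 mutant libraries were not alike: 1255 genes stood at least 2-fold above, and 792 at least 2-fold below, all other 5 libraries in mutant replicate 2, against 369 and 346 in replicate 3 and 151 and 351 in replicate 1. For that reason the gene groups below are given per library where the libraries part.

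**Figure D1:**
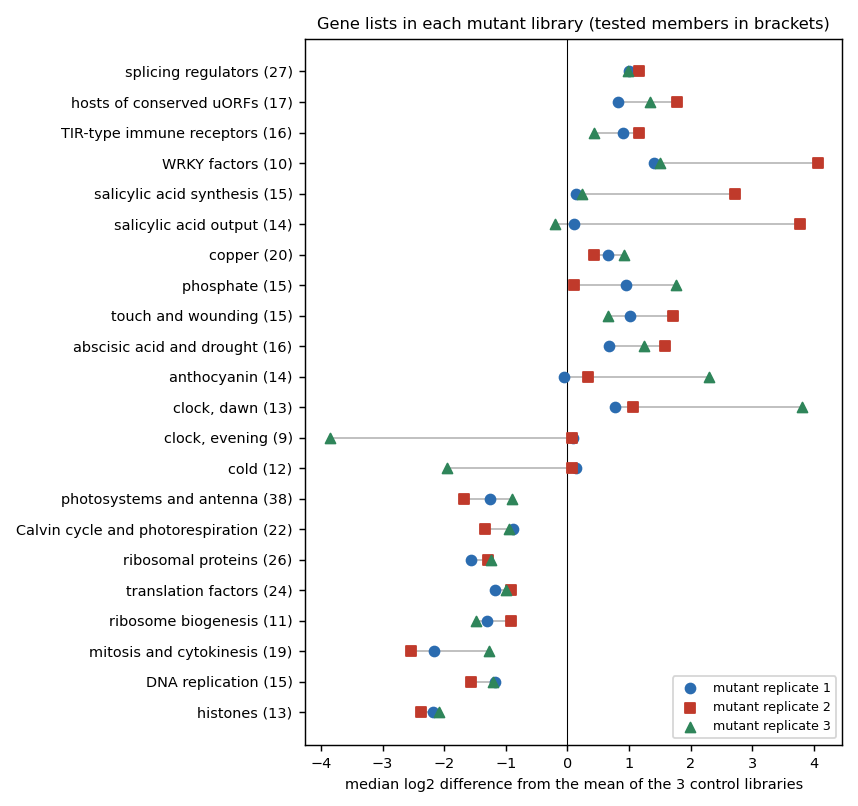
Median log2 difference of each mutant library from the mean of the 3 control libraries (x axis) for 22 gene lists (y axis, tested members in brackets), with a blue circle for mutant replicate 1, a red square for replicate 2 and a green triangle for replicate 3. The histone and ribosomal protein lists lie together on the left and the splicing regulators together on the right, while replicate 2 stands alone for the salicylic acid lists (2.73 and 3.78) and replicate 3 for the dawn (3.80) and evening (-3.86) clock lists.

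Among the partners of UPF1, UPF3 rose and EIF4A-III fell in the fit on all libraries. UPF3, a partner of UPF1 at the exon junction, gave 13.4, 13.4 and 12.2 CPM against 30.9, 37.8 and 16.7 CPM. Its call (log2 1.13, SE 0.30, edgeR adjusted p = 0.0292) was lost without control replicate 1 (0.0974), 2 (0.0981) or 3 (0.102) or without mutant replicate 1 (0.0617). EIF4A-III, the helicase of the exon junction complex, fell by 0.94 on the log2 scale (SE 0.21, edgeR adjusted p = 0.0164), a call lost without control replicate 1 (0.074), 2 (0.0527) or 3 (0.0517).

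Of 5 genes of translation termination and ribosome rescue, 1 rose (20%) and 2 fell (40%), against 15.3% and 12.5% of all genes tested. Close paralogs among them moved in opposite directions. ERF1-1, which encodes a form of release factor eRF1, gave 26.5, 18.4 and 29.1 CPM in control leaves and 74.7, 95.6 and 71.1 CPM in the mutant. ERF1-2, a second gene for the same factor, gave 57.8, 42.5 and 40.3 CPM against 18.7, 17.0 and 16.4 CPM. The groups did not overlap for either gene, and the order of the genotypes was reversed between them. ERF1-1 rose 3.26-fold (log2 1.70, SE 0.25, edgeR adjusted p = 0.00387) and ERF1-2 fell by 1.43 on the log2 scale (SE 0.22, edgeR adjusted p = 0.00415). Both calls held in every fit without 1 library. Of 23 mRNA decay factors (deadenylases, decapping enzymes, exonucleases), 1 rose (4.35%) and none fell, against 15.3% and 12.5% of all genes tested. The factor that rose was CAF1a, a subunit of the deadenylase complex, at 1.41 ± 0.105 CPM (SD, n = 3) in control leaves and 6.62 ± 2.33 CPM in the mutant.

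Regulators of splicing, many of which make alternative isoforms that carry a premature stop, rose in part. Of 27 tested, 14 rose and 1 fell, with a list median of 1.11 on the log2 scale against 0.03 over all genes tested. All mutant libraries lay above all control libraries for 15 of the 27, against 24.1% of all genes tested. The list medians of mutant replicates 1, 2 and 3 against the control mean were 0.99, 1.16 and 0.99, so the libraries that part on other lists were close here. SCL33, an SR-like splicing factor, gave 11.3, 11.2 and 11.5 CPM in control leaves and 72.2, 67.4 and 79.2 CPM in the mutant. The gap between the genotypes was many times the spread inside each, and the rise was 6.44-fold (log2 2.69, SE 0.19, edgeR adjusted p = 0.000827). PTB2, a polypyrimidine tract-binding protein known to control its own splicing, rose from 21.6, 22.4 and 21.7 CPM to 80.2, 83.7 and 91.1 CPM. The list and its counts also include TFIIIA, the transcription factor for 5S ribosomal RNA, which is not a regulator of splicing. TFIIIA, whose pre-mRNA holds an exon that introduces a stop, rose from 6.94, 7.07 and 6.62 CPM to 31.5, 39.5 and 33.8 CPM. RS31a, a plant-specific SR protein, rose from 4.70, 3.09 and 5.25 CPM to 20.6, 19.6 and 21.8 CPM. All of these were higher in every mutant library with no overlap, and 12 members, these among them, were called higher in every fit without 1 library. The member that fell was SR34, by 0.61 on the log2 scale (SE 0.19, edgeR adjusted p = 0.0459), a call kept in 1 of the 6 fits without a library, the one without mutant replicate 1 (0.0444).

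Hosts of conserved uORFs form another group whose transcripts are known NMD substrates. Of 17 tested, 9 rose and none fell, with a list median of 1.57 on the log2 scale. The count was 5 without control replicate 2 and 6 without control replicate 1 or 3. SAC51, a bHLH factor of the thermospermine response whose uORF blocks its main frame, gave 10.0, 11.8 and 9.08 CPM in control leaves and 78.1, 61.6 and 93.1 CPM in the mutant. Its relative AT5G09460 gave 33.0, 36.0 and 26.9 CPM against 183, 104 and 160 CPM. Neither gene overlapped between genotypes. SAC51 rose 7.53-fold (log2 2.91, SE 0.24) and AT5G09460 4.66-fold (log2 2.22, SE 0.28), with edgeR adjusted p = 0.00111 and 0.00245. SIP3, a CIPK-type protein kinase, rose 8.45-fold, from 27.9, 19.8 and 25.1 CPM to 197, 138 and 282 CPM. EMB1444 rose 4.21-fold, from 13.7, 14.3 and 14.9 CPM to 52.3, 60.2 and 68.3 CPM. SAMDC, an S-adenosylmethionine decarboxylase of polyamine synthesis, did not follow the genotypes: it stood at 204, 8.38 and 9.95 CPM in control leaves and at 9.99, 866 and 821 CPM in the mutant. High and low libraries occurred in both groups, it has a paralog, AT5G15950, with which estimated counts may be shared, and it was not called (log2 2.93, SE 1.63, edgeR adjusted p = 0.208).

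The same features were read from the reference annotation for all protein-coding genes with annotated UTRs. Of 1914 tested genes with a transcript that carries an exon junction more than 50 nt after the stop codon, 437 rose (22.8%) and 122 fell (6.37%), whereas of 16749 genes without one 13.1% rose and 14.01% fell. The median log2 fold change was 0.32 with such a junction and -0.05 without it, and the per-library medians with it were 0.28, 0.24 and 0.30. Fewer of the 1914 genes rose without control replicate 1, 2 or 3 (207, 191 and 235), and between 427 and 474 without a mutant library. Among the 7356 genes whose upstream frames reach 16 codons or more, 17.61% rose and 9.26% fell, against 11.8% and 15.8% of 11307 genes without; 595, 519 and 665 of the former rose without control replicate 1, 2 and 3. By length of the longest 3′ UTR, the share that rose was 15.5% up to 200 nt, 11.9% from 200 to 350 nt, 13.7% from 350 to 500 nt and 18.4% above 500 nt, and the share that fell was lowest, 8.27%, in the longest class. The lowest share that rose was thus in the second length class and not in the shortest. Genes that are not translated as annotated moved further. Of 265 tested non-coding RNA genes 113 rose and 5 fell (median 1.27). Of 364 tested pseudogenes 143 rose and 4 fell (median 1.17). The tested genes were a part of 390 non-coding RNA loci and of 4811 pseudogenes. A locus near the floor can pass the count filter through the libraries of 1 genotype alone. How far this raised the shares and medians of these classes was not tested. Without a control library the counts that rose dropped to between 66 and 77 for non-coding RNA genes and between 66 and 91 for pseudogenes, with control replicate 2 the lowest for the first and replicate 1 for the second. The non-coding RNA AT3G63445 gave 3.08, 4.79 and 4.87 CPM against 56.0, 55.0 and 54.7 CPM, and the pseudogene AT2G13970 gave 7.64, 5.72 and 6.08 CPM against 93.6, 71.8 and 75.9 CPM. Both rose, 13.01-fold and 12.41-fold, with mutant libraries that differed little from each other. Gene-level counts do not show which isoform of a gene rose.

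**Figure D2:**
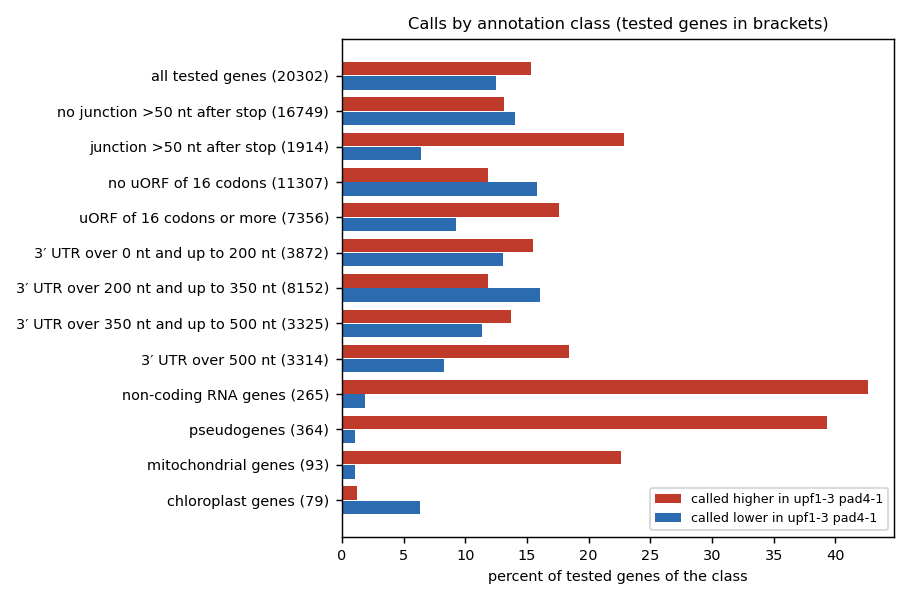
Percent of tested genes called higher (red) or lower (blue) in upf1-3 pad4-1 (x axis) in each annotation class (y axis, tested genes in brackets). Non-coding RNA genes (42.6% higher) and pseudogenes (39.3%) have the longest red bars. Only 265 of 390 non-coding RNA loci and 364 of 4811 pseudogenes had enough counts to be tested. Genes with an exon junction beyond 50 nt after the stop (22.8%) exceed all tested genes (15.3%).

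The flowering repressor FLC was among the strongest risers, and 4 of its relatives rose as well, by less. FLC, a MADS-box protein that holds back the floral transition, gave 0.142, 0.129 and 0.206 CPM in control leaves and 13.8, 20.2 and 19.9 CPM in the mutant. It was close to undetected in all control libraries and clearly present in all mutant libraries, with a rise of 112-fold (log2 6.80, SE 0.35, edgeR adjusted p = 0.000594). MAF1, a relative of FLC, rose 2.65-fold, from 6.84, 8.32 and 7.53 CPM to 22.1, 19.4 and 18.7 CPM. MAF3 rose 4.69-fold, from 3.03, 2.58 and 1.87 CPM to 16.3, 9.19 and 9.64 CPM. MAF4 and MAF5, neighbours of MAF3 on chromosome 5, were at or below 0.111 CPM in every control library and between 0.602 and 2.66 CPM in the mutant, and both were called. No library of one genotype reached those of the other for any of these 5 repressors. AGL20 (also known as SOC1), an activator of flowering that FLC represses, fell by 1.65 on the log2 scale (SE 0.32, edgeR adjusted p = 0.0101), from 23.2, 13.9 and 11.5 CPM to 4.35, 6.41 and 4.66 CPM. FT, the mobile flowering signal, was not called (0.451, 0.755 and 0.554 CPM against 0.0186, 0.181 and 0.774 CPM), with the mutant libraries on both sides of the control. Over the whole flowering list, 5 of 21 tested genes rose (23.8%) and 3 fell (14.3%), against 15.3% and 12.5% of all genes tested. The other 2 that fell, CO and AGL8, lost their calls without control replicate 1 (edgeR adjusted p = 0.106 and 0.113), and in further fits.

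Other genes at the top of the list rose in all mutant libraries. MYB59, a transcription factor whose transcript is known to be alternatively spliced, gave 1.73, 1.05 and 0.981 CPM in control leaves and 56.0, 39.4 and 55.7 CPM in the mutant, 39.99-fold more (log2 5.32, SE 0.33, edgeR adjusted p = 0.000594). CPUORF47, annotated as a gene with a conserved upstream peptide, rose 33.5-fold, from 3.74, 5.17 and 5.44 CPM to 125, 148 and 208 CPM. OMTF3, a predicted methyltransferase, rose 32.7-fold, from 1.29, 1.01 and 1.14 CPM to 41.2, 29.1 and 42.6 CPM. For these genes the lowest mutant library lay far above the highest control library. GolS2, which makes galactinol for raffinose synthesis, rose 125-fold but spread widely, from 0.193, 0.110 and 0.222 CPM to 19.95, 7.51 and 39.7 CPM. MRD1 rose 109-fold, from 0.129, 0.092 and 0.222 CPM to 8.48, 16.1 and 24.6 CPM, and OASA2, annotated in the cysteine synthase family, 45.6-fold, from 0.697, 0.368 and 0.158 CPM to 19.2, 30.3 and 7.21 CPM. Receptor-like kinases also rank here, with replicate 2 the highest library for each. CRK24 gave 8.31, 35.9 and 5.61 CPM in the mutant against 0.103, 0.331 and 0.190 CPM, and its log2 fold change of 6.34 was 5.12 without replicate 2 (edgeR adjusted p = 0.00339 and 0.000695). CRK6 gave 7.01, 178 and 8.93 CPM in the mutant against 1.57, 2.30 and 2.37 CPM, and its log2 fold change of 4.96 became 1.96 without that library (edgeR adjusted p = 0.0256 and 0.00335). Its call was lost without control replicate 1 (0.109), 2 (0.0916) or 3 (0.0876).

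**Figure D3:**
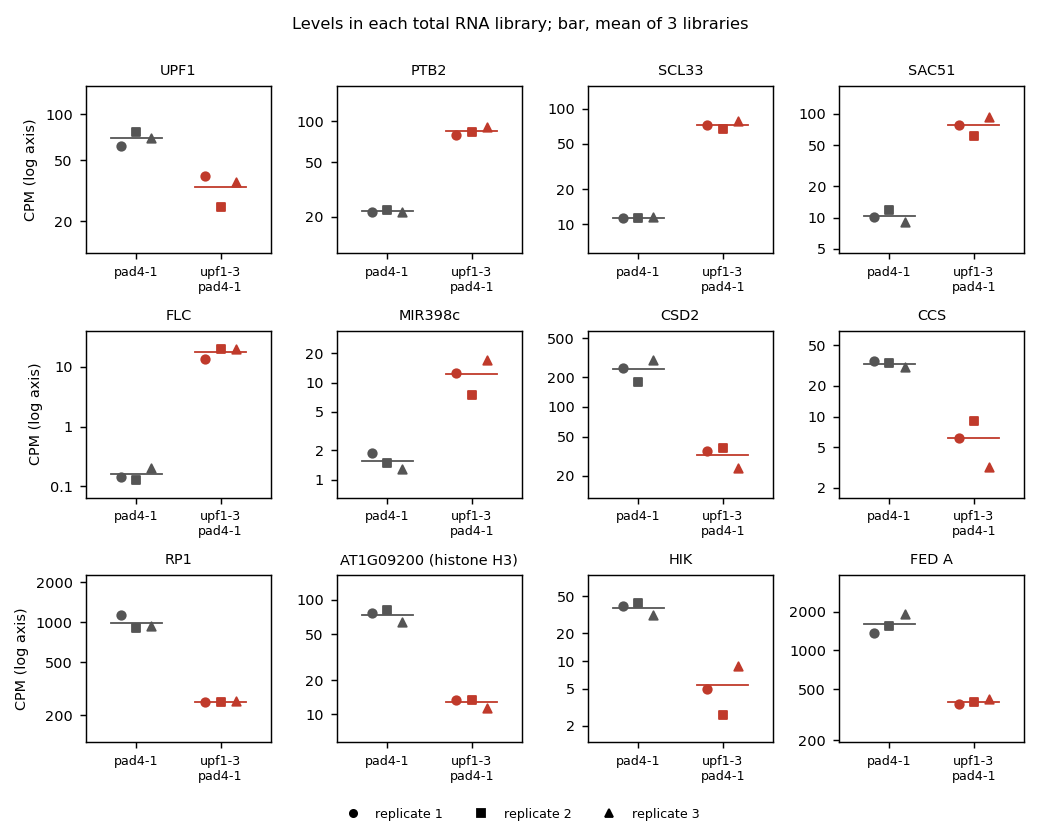
Level of 12 genes in each of the 6 total RNA libraries (y axes, CPM on log scales; circles, squares and triangles are replicates 1, 2 and 3; bars are means of 3 libraries), control in grey and mutant in red. In every panel the 3 red points lie on one side of the 3 grey points.

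The machinery of protein synthesis fell. Of 26 genes for cytosolic ribosomal proteins, 22 fell and none rose, with a list median of -1.32 and library medians of -1.57, -1.29 and -1.24; the count was 14 without control replicate 2. RP1 (AT1G43170), ribosomal protein L3 of the large subunit, gave 1128, 911 and 938 CPM in control leaves and 252, 249 and 256 CPM in the mutant. The 3 mutant libraries were nearly equal and far below the control, a 3.93-fold fall (log2 -1.97, SE 0.23, edgeR adjusted p = 0.00203). RPL23AA, another large-subunit protein, fell by 2.17 on the log2 scale (121, 115 and 80.1 CPM to 27.2, 18.17 and 24.8 CPM). AT2G01250, a gene of the L7 family, fell by 2.13 (197, 193 and 132 CPM to 26.9, 46.2 and 46.3 CPM). Of 24 translation factors 17 fell and 1 rose, with 8 that fell without control replicate 2 and 11 without control replicate 1. PAB4, a poly(A)-binding protein, fell from 255, 234 and 284 CPM to 74.1, 74.3 and 79.0 CPM, and eIFiso4G2, a scaffold of cap-dependent initiation, from 56.8, 55.1 and 59.3 CPM to 18.9, 18.6 and 16.3 CPM. The factor that rose was AT1G07940, a gene for elongation factor 1-alpha, from 384, 576 and 455 CPM to 846, 1079 and 890.5 CPM; this family has near-identical copies, and the call (log2 0.99, SE 0.26, edgeR adjusted p = 0.0257) was lost without control replicate 1 (0.0965), 2 (0.0633) or 3 (0.0989). Of 11 genes of ribosome assembly, 9 fell, with 5 without control replicate 1 and 4 without control replicate 2. FIB2, a fibrillarin of ribosomal RNA methylation, fell by 2.16 on the log2 scale (SE 0.26), from 37.8, 51.7 and 48.6 CPM to 8.18, 13.2 and 9.62 CPM. Its paralog FIB1 was not called (96.4, 96.3 and 140 CPM against 42.9, 95.0 and 70.1 CPM; log2 -0.68, SE 0.33, edgeR adjusted p = 0.153) except without mutant replicate 2 (log2 -0.95, adjusted p = 0.0486).

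Genes of the dividing cell fell as well. Of 13 histone genes 11 fell, with a list median of -2.30, and 10 of them fell in every fit without 1 library. AT1G09200, a gene for histone H3, gave 76.3, 82.1 and 64.5 CPM in control leaves and 13.5, 13.3 and 11.4 CPM in the mutant. AT5G59970, a gene for histone H4, gave 38.04, 33.2 and 30.3 CPM against 7.27, 5.84 and 7.90 CPM. All mutant libraries of both lay far below the control, with falls of 5.83-fold (SE 0.21 on the log2 scale) and 4.83-fold (SE 0.22). Histone genes are near copies of each other, so the split of estimated counts among them is uncertain. Of 15 replication genes 13 fell, from CDT1A, which licenses origins (19.3, 20.3 and 17.41 CPM to 6.34, 6.37 and 6.54 CPM), to FAS1, a subunit of the chromatin assembly factor (18.4, 14.6 and 12.8 CPM to 5.39, 3.59 and 4.29 CPM); 7 fell without control replicate 2. Of 19 genes of mitosis and cytokinesis 15 fell and none rose; 10 fell without control replicate 2. HIK, a kinesin of the phragmoplast, gave 39.8, 42.2 and 31.3 CPM in control leaves and 4.95, 2.65 and 8.83 CPM in the mutant. CYCB1;1, the B-type cyclin used as a marker of cells entering mitosis, gave 8.40, 9.11 and 7.87 CPM against 1.86, 1.74 and 3.63 CPM. Neither gene overlapped, and replicate 3 was the highest mutant library for both. HIK fell by 2.79 (SE 0.43, edgeR adjusted p = 0.00427) and CYCB1;1 by 1.81 (SE 0.34, edgeR adjusted p = 0.00894) on the log2 scale. The 5 shoot meristem markers summed to between 12.1 and 12.6 CPM in control leaves and to 1.71, 10.6 and 13.2 CPM in mutant replicates 1, 2 and 3, and the 7 flower markers to between 3.64 and 23.1 CPM and to 0.391, 3.71 and 2.24 CPM. The meristem sum was below the control in replicate 1 and near it in replicates 2 and 3, and the part of young tissue in the fall of these genes was not tested.

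Nuclear genes of photosynthesis fell while some organelle transcripts rose. Of 38 genes of the photosystems, antenna and electron transport, 23 fell and none rose (list median -1.15); 8 fell without control replicate 1 or 2 and 11 without control replicate 3. FED A, the leaf ferredoxin that carries electrons from photosystem I, gave 1366, 1559 and 1915 CPM in control leaves and 386, 396 and 417 CPM in the mutant. PSAF, a subunit of photosystem I, gave 2044, 1755 and 2183 CPM against 599.7, 531 and 796 CPM. The mutant libraries of both were all lower, by 4.04-fold (SE 0.25 on the log2 scale, edgeR adjusted p = 0.00244) and 3.11-fold (SE 0.27, edgeR adjusted p = 0.00537). CAB2, an antenna protein of photosystem II, was low in mutant replicates 1 and 2 (177 and 446 CPM) but at 2946 CPM in replicate 3, inside the control range of 2662 to 4058 CPM, and was not called except without that library (log2 -3.44, edgeR adjusted p = 0.0048). Of 22 genes of the Calvin cycle and photorespiration 14 fell, with 3 without control replicate 1 or 2 and 4 without control replicate 3. RBCS1B, a small subunit of Rubisco, fell from 748, 1094 and 1219.9 CPM to 425, 254 and 250.2 CPM. RCA, which activates Rubisco, was not called, and its replicate 3 was the highest of all 6 libraries (3347 CPM).

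The chloroplast genome gave the most abundant transcripts of both groups. ATCG00020 was first in both, with 82650, 131006 and 167241 CPM in control leaves and 359848, 321316 and 405730 CPM in the mutant. Its mutant libraries did not overlap the control, but the call (log2 1.51, SE 0.42, edgeR adjusted p = 0.033) ended when control replicate 1, 2 or 3 (0.111, 0.137 and 0.0826) or mutant replicate 1 (0.0678) was left out. Of 79 chloroplast genes tested it was the only one that rose in the fit on all 6 libraries. Another 5 fell (6.33%, against 12.5% of all genes), with 2 without control replicate 1, 0 without control replicate 2 and 8 without mutant replicate 1. A gene that takes so large a part of a library weighs on every CPM value, and without chloroplast, mitochondrial and ribosomal RNA genes 3241 genes rose and 2438 fell. Mitochondrial genes took 1.32%, 1.24% and 1.32% of counts in control leaves and 2.48%, 2.30% and 2.00% in the mutant (exact permutation p = 0.1, the smallest that 3 against 3 libraries allow). Of 93 tested, 21 rose (22.6%) and 1 fell (1.08%), against 15.3% and 12.5% of all genes tested, and 8 rose without control replicate 2. ATMG00410 gave 581, 858 and 741 CPM against 2069, 2436 and 3407 CPM, a 3.63-fold rise (log2 1.86, SE 0.30, edgeR adjusted p = 0.00535).

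Copper genes showed a pattern in which a microRNA gene and the genes it is known to silence moved apart. Plants short of copper are known to switch on miR398 and miR408 through the factor SPL7, and these microRNAs remove transcripts of copper enzymes such as the Cu/Zn superoxide dismutases CSD1 and CSD2, their chaperone CCS, and plantacyanin and laccases. The mature sequences, from RefSeq annotation on TAIR10.1, are shown with the seed (bases 2 to 8) in capitals because the 3p strands of the family share it.
miR398a-3p: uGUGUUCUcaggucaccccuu
miR398b-3p: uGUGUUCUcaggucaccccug
miR398c-3p: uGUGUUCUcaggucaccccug
miR408-3p: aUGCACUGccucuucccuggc
The 3p strands of miR398b and miR398c are identical and differ from miR398a in the last base, so a target cannot tell b from c. The best matches in targets, on the sense strand of the same build, are shown with bases that pair by Watson-Crick rules with miR398c-3p or miR408-3p in capitals, without allowing for bulges.
CSD1 (chr1:2827177-2827685, plus strand, across an intron of the 5′ UTR): aAGGGGTttCCTGAGAtCACA
CSD2 (chr2:12015572-12015592, plus strand, coding): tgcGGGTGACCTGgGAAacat
CCS (chr1:4267521-4267541, minus strand, coding): attGGGaGACCTGgGAACACt
ARPN (chr2:827696-827716, minus strand, coding): cCaAGGGAAGAGGCAGTGCAT
CSD1 pairs at 17 of 21 bases, CSD2 at 13, CCS at 15 and ARPN (plantacyanin) at 19 with miR408.

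The MIR398c gene gave 1.86, 1.47 and 1.298 CPM in control leaves and 12.6, 7.39 and 17.2 CPM in the mutant, and the MIR408 gene gave 0.181, 0.166 and 0.142 CPM against 1.90, 1.16 and 6.82 CPM. These are reads of the precursor transcripts and not of mature microRNAs. All mutant libraries were higher for both, with replicate 3 the highest, and the rises were 8.01-fold (log2 3.00, SE 0.37, edgeR adjusted p = 0.00238) and 19.9-fold (log2 4.32, SE 0.75, edgeR adjusted p = 0.00667). CSD2 gave 251, 178 and 298 CPM in control leaves and 35.6, 38.5 and 23.9 CPM in the mutant, and CCS gave 34.8, 33.6 and 30.7 CPM against 6.21, 9.14 and 3.20 CPM. Both were lower in all mutant libraries, and replicate 3, the library highest in MIR398c, was the lowest for both. CSD2 fell by 2.89 (SE 0.30, edgeR adjusted p = 0.00161) and CCS by 2.42 (SE 0.37, edgeR adjusted p = 0.00425) on the log2 scale. CSD1 parted by library: it gave 65.6, 149 and 120 CPM in control leaves and 30.1, 137 and 18.02 CPM in the mutant. Mutant replicates 1 and 3 were below the control and replicate 2 inside it, and CSD1 was not called (log2 -0.85, SE 0.71, edgeR adjusted p = 0.395) but passed without replicate 2 (log2 -2.18, adjusted p = 0.00766). ARPN parted in the same way, with replicate 2 above the control, at 2.64, 3.33 and 3.45 CPM in control leaves and 0.781, 4.38 and 1.14 CPM in the mutant, with no call (log2 -0.57, SE 0.62, edgeR adjusted p = 0.515) except without replicate 2 (log2 -1.68, adjusted p = 0.0131). LAC13, a laccase with a match of 17 of 21 bases to miR408-3p in its 5′ UTR, went the other way and rose from 3.33, 4.36 and 4.24 CPM to 18.4, 32.6 and 16.5 CPM.

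The other copper genes that moved include uptake functions. YSL2, a metal-nicotianamine transporter, gave 2.66, 2.45 and 2.04 CPM in control leaves and 20.8, 8.70 and 34.5 CPM in the mutant. FRO3, a mitochondrial ferric chelate reductase, gave 9.54, 8.43 and 12.7 CPM against 115, 42.6 and 51.0 CPM. COPT2, a copper transporter of the cell surface, gave 0, 0.0736 and 0.111 CPM against 1.62, 1.15 and 2.96 CPM. All 3 genes were higher in every mutant library, with replicate 2 the lowest of the mutant libraries for each. YSL2 rose 8.95-fold and FRO3 6.81-fold (edgeR adjusted p = 0.00427 and 0.00406), and the call of COPT2 (0.00977) was lost without control replicate 2 (0.0521). The bHLH gene AT1G71200 had no count in any control library and 1.26, 0.259 and 4.23 CPM in the mutant, at least 34.7-fold more over the floor of 3 counts per library. FSD1, the iron superoxide dismutase that stands in for CSD2, gave 43.9, 52.2 and 57.6 CPM against 107, 69.4 and 167 CPM (log2 1.16, SE 0.33, edgeR adjusted p = 0.0356); its call was lost without any single control library (0.123, 0.109 and 0.089) and without mutant replicate 1 (0.0559) or 3 (0.0578). Over the list, 9 of 20 tested genes rose (45%, against 15.3% of all genes tested) and 3 fell (15%, against 12.5%). Between 6 and 9 rose when 1 library was left out, and 2 fell without control replicate 2 and 5 without mutant replicate 2. The region before the annotated start of MIR398c is shown because GTAC, the core bound by SPL7-type factors, occurs in it 3 times (capitals). The copies lie between 225 and 137 bases before that start, which need not be the start of transcription. The region of the same length before COPT2 holds no copy. The core is in 34.7% of 20053 promoters of the same length and in 11 of 22 promoters of the list; it is its own reverse complement, so both strands are covered.
MIR398c (TAIR10.1 chr5:4694444-4694693, plus strand): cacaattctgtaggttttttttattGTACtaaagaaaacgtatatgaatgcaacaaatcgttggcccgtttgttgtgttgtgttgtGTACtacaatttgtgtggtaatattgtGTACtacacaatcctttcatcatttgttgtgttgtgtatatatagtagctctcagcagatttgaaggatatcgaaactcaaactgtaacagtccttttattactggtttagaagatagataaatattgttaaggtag

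Iron and phosphate genes were higher in replicates 1 and 3 of the mutant than in replicate 2. bHLH38, a factor of the iron-deficiency response, gave 0.116, 0.110 and 0.111 CPM in control leaves and 4.85, 0.763 and 5.99 CPM in the mutant. Its groups did not overlap and replicate 2 was the lowest mutant library, with a rise of 33.7-fold (log2 5.08, SE 0.81, edgeR adjusted p = 0.00483). FER3 and FER4, ferritins that store iron, fell by 1.57 and 1.32 on the log2 scale; FER3 lost its call without control replicate 2 (0.0517) or 3 (0.0508) and FER4 without control replicate 2 (0.0557). Of 15 iron genes 3 rose (20%) and 2 fell (13.3%), near the 15.3% and 12.5% of all genes tested. Without mutant replicate 2 the counts were 9 and 3, and without control replicate 1 they were 1 and 2. Without control replicate 2 they were 2 and 0, and without control replicate 3 they were 4 and 1. PAP17, a phosphatase induced by phosphate shortage, rose 9.84-fold, from 3.92, 4.77 and 4.24 CPM to 39.0, 33.8 and 54.5 CPM (edgeR adjusted p = 0.000966). SRG3, a glycerophosphodiesterase of the same response, rose 10.3-fold, from 1.51, 1.03 and 0.712 CPM to 11.3, 4.601 and 17.7 CPM (edgeR adjusted p = 0.00499). Of 15 phosphate genes 6 rose, 10 without mutant replicate 2, 3 without control replicate 3 and 2 without control replicate 1 or 2. The list medians of the mutant libraries were 0.94, 0.11 and 1.76.

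Part of the TIR-type immune receptor genes rose, while salicylic acid genes were highest in mutant replicate 2. All mutant libraries lay above all control libraries for 10 of 16 TIR-type genes, against 24.1% of all genes tested. For coiled-coil and helper receptor genes this was so for 4 of 13, near that share. Of 16 TIR-type receptor genes 8 rose, 5 of them in every fit without 1 library; the count was 5 without control replicate 2 or 3. RPS6 (AT5G46470) gave 24.2, 22.6 and 20.7 CPM in control leaves and 63.4, 61.7 and 63.7 CPM in the mutant. WRR4, a receptor for white rust, gave 13.002, 15.2 and 13.5 CPM against 53.5, 63.4 and 50.2 CPM. TAO1, a receptor of bacterial effectors, gave 6.24, 7.34 and 6.30 CPM against 33.3, 19.0 and 31.9 CPM. None of these overlapped. Replicate 2 was the highest mutant library for WRR4 and the lowest for RPS6 and TAO1. The rises of RPS6, WRR4 and TAO1 were 2.80-, 4.005- and 4.23-fold (edgeR adjusted p = 0.00244, 0.00157 and 0.00268). RPS4, a receptor of the same class, was not called (11.9, 14.04 and 12.3 CPM against 23.4, 16.2 and 11.3 CPM). Of the 13 coiled-coil and helper receptor genes 2 rose, a share (15.4%) close to the 15.3% of all genes tested, and neither passed without control replicate 1, 2 or 3, while the count was 4 without mutant replicate 1 or 3 and 1 without mutant replicate 2. BON1, a copine that restrains immune receptor output, rose 23.0-fold, from 0.271, 1.14 and 1.504 CPM to 12.6, 35.2 and 18.9 CPM.

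Salicylic acid genes are given per library because the mean of the mutant group describes none of them. EDS16, the isochorismate synthase that opens salicylic acid synthesis, gave 3.93, 4.31 and 4.30 CPM in control leaves and 8.14, 90.4 and 16.7 CPM in the mutant. BGL2 (PR2) gave 2.36, 1.16 and 1.85 CPM against 0.967, 492 and 12.5 CPM, and PR1, the marker of salicylic acid output, gave 13.1, 6.55 and 6.52 CPM against 1.19, 537 and 3.55 CPM. Replicate 2 was far above all other libraries for each, and for PR1 the other mutant libraries were below every control library. PR1 was not called over all libraries (log2 4.37, SE 1.93, edgeR adjusted p = 0.125), and without replicate 2 it fell by 1.86 on the log2 scale (adjusted p = 0.0316). EDS16 rose in the fit on all libraries (log2 3.20, SE 0.82, edgeR adjusted p = 0.025), and by 1.59 without replicate 2 (0.00886); without control replicate 1, 2 or 3 it was not called (0.102, 0.0893 and 0.0862). BGL2 was called on all libraries (log2 6.55, SE 1.98, edgeR adjusted p = 0.0427) and not without replicate 2 (log2 1.92, adjusted p = 0.113) or without control replicate 1 (0.139), 2 (0.14) or 3 (0.13). Of 15 genes of salicylic acid synthesis and signalling 4 rose and of 14 output genes 4 rose, none of which passed without control replicate 1, 2 or 3. Without mutant replicate 1 the counts were 7 and 7, without mutant replicate 3 they were 8 and 6, and without mutant replicate 2 they were 4 and 3 with 1 gene of each list lower. The median of the output list was 3.78 in replicate 2, 0.11 in replicate 1 and -0.21 in replicate 3. Of 10 WRKY factors 6 rose, 2 of them without a control library, WRKY40 (0.426, 0.718 and 0.570 CPM to 7.16, 14.7 and 4.54 CPM) and WRKY33 (8.11, 7.12 and 6.41 CPM to 24.5, 52.0 and 22.9 CPM).

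Replicate 2 stood apart in other measures too. Nuclear ribosomal RNA genes took 0.206%, 0.194% and 0.358% of counts in control leaves and 0.103%, 10.4% and 2.03% in mutant replicates 1, 2 and 3 (exact permutation p = 0.4), nearly all at AT3G41768 and AT3G41979. TGG2, a myrosinase of myrosin cells, gave 1129, 1376 and 1144 CPM in control leaves and 587, 78.4 and 765 CPM in the mutant, and LAX2, an auxin importer of vascular tissue, gave 17.8, 30.6 and 37.6 CPM against 20.9, 1.82 and 27.8 CPM. Both were lowest in replicate 2 and neither was called. The 5 stomatal lineage markers summed to 3.46, 1.09 and 10.00 CPM in mutant replicates 1, 2 and 3. The part of ribosomal RNA carry-over or tissue make-up in the defence values of that library was not tested. Without replicate 2, 3260 genes rose and 2422 fell, and 2741 of the 3107 higher and 2091 of the 2531 lower genes were still called. For 372 of the higher genes the fold change itself, not its log2, was then more than 1.5 times smaller. The 8 genes furthest above all other libraries in replicate 2 were WAK3, PR1, BGL2, EARLI1, LTP3, CRK13, CHI and PR5. The W-box core TTGAC, bound by WRKY factors, is in 6 of their 8 promoters (250 bases, both strands) against 44.6% of all promoters; it is in 8 of 15 promoters (53.3%) of the salicylic acid output list, near that share.

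**Figure D4:**
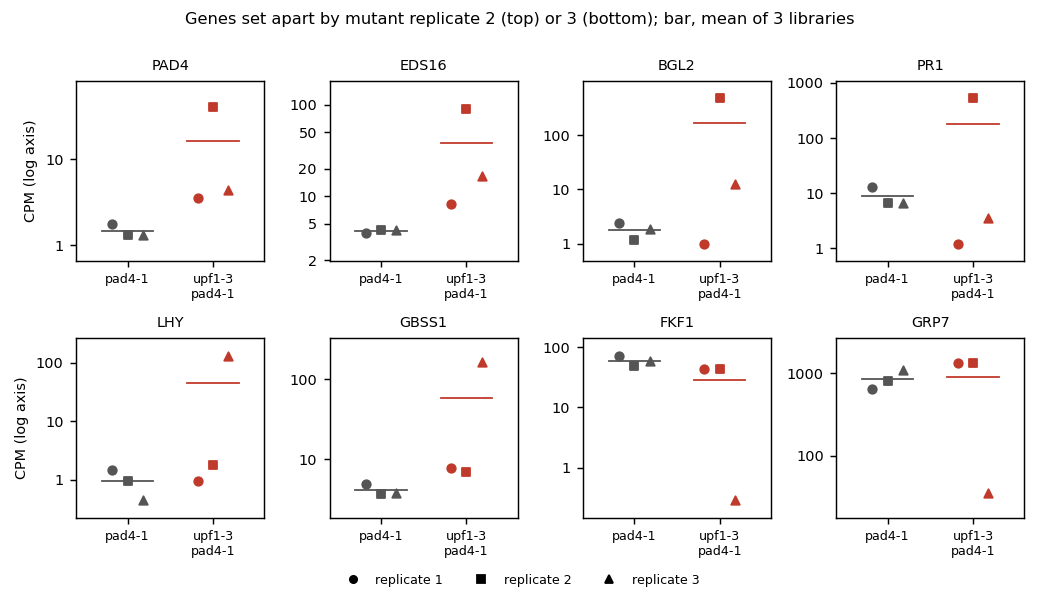
Level of 8 genes in each total RNA library (y axes, CPM on log scales; circles, squares and triangles are replicates 1, 2 and 3; bars are means of 3 libraries), control in grey and mutant in red. In the upper row the red square (replicate 2) is the highest point of each panel, and in the lower row the red triangle (replicate 3) is the highest for LHY and GBSS1 and the lowest for FKF1 and GRP7.

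Replicate 3 of the mutant differed in the genes of the circadian clock, a loop in which the dawn factors CCA1 and LHY repress evening genes through the evening element and are repressed in return. LHY gave 1.44, 0.957 and 0.443 CPM in control leaves and 0.948, 1.81 and 131.9 CPM in the mutant. FKF1, a blue-light receptor of the late day, gave 70.5, 48.0 and 58.0 CPM against 44.0, 43.0 and 0.293 CPM. GRP7, an RNA-binding protein that peaks in the evening, gave 647, 817 and 1102 CPM against 1322, 1335 and 35.4 CPM. Replicate 3 was the highest library for LHY and the lowest for FKF1 and GRP7. Mutant replicates 1 and 2 were close to the control for LHY, just below every control library for FKF1 and above every control library for GRP7. GBSS1, the granule-bound starch synthase that CCA1 is known to drive at dawn, gave 4.89, 3.72 and 3.77 CPM against 7.90, 6.90 and 163 CPM. Of the 13 dawn genes 5 rose and of the 9 evening genes none was called, with list medians of 0.77, 1.06 and 3.80 and of 0.10, 0.08 and -3.86 in mutant replicates 1, 2 and 3. The 5 calls fell to 0 without control replicate 1 or 3 and to 1 without control replicate 2, and rose to 8 without mutant replicate 1 and 9 without mutant replicate 2. Without mutant replicate 3 there were still 5, and the list median was 0.84; CCA1, with 0.903, 0.884 and 0.807 CPM in control leaves and 3.27, 2.33 and 51.5 CPM in the mutant, then rose by 1.72 on the log2 scale (edgeR adjusted p = 0.0173). PRR9, a morning repressor and the only one of 4 day genes to be called, was high in all mutant libraries (0.632, 0.423 and 0.317 CPM against 8.14, 9.11 and 43.1 CPM; log2 5.44, SE 0.78, edgeR adjusted p = 0.00353), and its rise without replicate 3 was 4.25. The cold list of 12 genes had medians of 0.14, 0.08 and -1.95 and no call by edgeR over all libraries. The anthocyanin list had medians of -0.05, 0.34 and 2.29. Without replicate 3, 3430 genes rose and 2679 fell, with 2775 and 2037 shared with the calls on all libraries.

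The 12 ribosome-bound libraries allow the same genes to be read elsewhere in the series, on levels normalised in their own table and therefore set side by side without a test. Against the mean of control total RNA on the log2(CPM + 0.5) scale, the dawn list had a median of 3.53 in mutant total replicate 3 and of 0.65 and 0.73 in replicates 1 and 2. In the 6 ribosome-bound mutant libraries it lay between 3.58 and 5.42, and in the 6 ribosome-bound control libraries between 0.28 and 0.98. The evening list had medians of -2.91 in mutant total replicate 3, 0.10 and 0.08 in replicates 1 and 2, between -4.02 and -1.91 in the ribosome-bound mutant libraries and between -0.77 and -0.27 in the ribosome-bound control libraries. All ribosome-bound mutant libraries thus lay on the side of replicate 3, and replicates 1 and 2 of mutant total RNA on the side of the control. Hour of harvest and genotype cannot be told apart in these libraries. The evening element AAAATATCT is in 2.55% of 20053 promoters (250 bases, both strands), in 5 of the 9 promoters of the evening list, in 2 of 13 of the dawn list and in 4 of the 8 genes furthest below all other libraries in replicate 3. Promoters of 2 of these genes are printed with the element in capitals on the gene's strand (AAAATATCT, or AGATATTTT for the other strand), GRP7 with 3 copies and FKF1 with 1.
FKF1 (TAIR10.1 chr1:25508389-25508638, plus strand): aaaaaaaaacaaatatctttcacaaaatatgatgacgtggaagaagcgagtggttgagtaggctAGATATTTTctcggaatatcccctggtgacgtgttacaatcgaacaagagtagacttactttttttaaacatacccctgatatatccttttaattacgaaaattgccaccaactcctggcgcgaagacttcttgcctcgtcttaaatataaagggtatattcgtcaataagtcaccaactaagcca
GRP7 (TAIR10.1 chr2:9266558-9266807, minus strand): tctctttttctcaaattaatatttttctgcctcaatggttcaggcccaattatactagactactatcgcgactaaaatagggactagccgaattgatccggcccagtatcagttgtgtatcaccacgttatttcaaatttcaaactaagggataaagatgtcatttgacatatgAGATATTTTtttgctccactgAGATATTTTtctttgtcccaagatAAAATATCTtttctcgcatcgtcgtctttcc
COR27, a cold- and evening-regulated gene of the clock, gave 37.5, 31.4 and 25.5 CPM in control leaves and 34.3, 21.1 and 0.138 CPM in the mutant. The element is described as letters only, and a match is not evidence of binding.

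**Figure D5:**
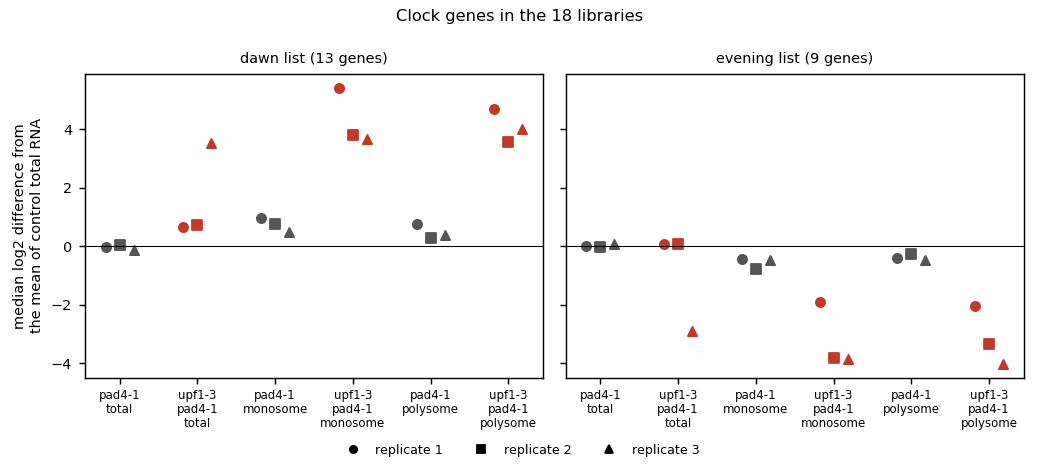
Median log2 difference from the mean of control total RNA (y axis, log2(CPM + 0.5) scale) for the dawn list (left) and the evening list (right) in the 18 libraries by group (x axis; circles, squares and triangles are replicates 1, 2 and 3), pad4-1 in grey and upf1-3 pad4-1 in red. Mutant total replicate 3 (3.53 and -2.91) lies with the ribosome-bound mutant libraries and mutant total replicates 1 and 2 lie with the control.

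Some stress and hormone lists held more called genes than the 15.3% of all genes that rose, and others did not. Of 16 genes of abscisic acid and drought 8 rose and none fell, and 4, 3 and 5 rose without control replicate 1, 2 and 3. ABF3, a transcription factor of the abscisic acid response, gave 1.48, 1.77 and 2.39 CPM in control leaves and 7.68, 8.22 and 11.2 CPM in the mutant. HAB1, a phosphatase that restrains that response, gave 6.35, 6.55 and 5.25 CPM against 17.5, 27.6 and 25.1 CPM. Both were higher in all mutant libraries, by 4.81- and 3.86-fold (edgeR adjusted p = 0.00295 and 0.00264). Of 15 genes of touch and wounding 7 rose, and 4, 3 and 4 without control replicate 1, 2 and 3; DIC2, a mitochondrial dicarboxylate carrier, rose 4.38-fold, from 2.80, 2.52 and 3.21 CPM to 11.2, 10.8 and 15.4 CPM. STZ, a zinc-finger repressor, rose 18.02-fold, from 0.374, 0.773 and 0.855 CPM to 6.56, 21.9 and 7.45 CPM. Of 13 heat genes 4 rose and 1 fell, and 2 rose without control replicate 2 or 3; the member that fell, ROF1, was not called without control replicate 1 or 3. HSP70 (AT3G12580), a cytosolic chaperone, rose 19.4-fold, from 2.32, 1.73 and 1.74 CPM to 63.4, 21.4 and 27.6 CPM (edgeR adjusted p = 0.00171). Of 23 jasmonate genes 8 rose, 2 without control replicate 1, 1 without control replicate 2 or 3 and 5 without mutant replicate 2. AOC1, an allene oxide cyclase, passed in every fit (5.25, 3.53 and 3.21 CPM to 16.8, 24.7 and 9.47 CPM). Of 14 senescence genes 4 rose, and none passed without control replicate 1, 2 or 3, while 7 rose without mutant replicate 1, 8 rose and 1 fell without mutant replicate 3, and 1 rose and 1 fell without mutant replicate 2; the list median was 2.30 in mutant replicate 2 against 0.49 and 0.80 in the others. Of 14 anthocyanin genes 3 rose, 1 without control replicate 1 or 2, 2 without control replicate 3 and 5 without mutant replicate 1 or 2; PAP1 (AT1G56650), the MYB activator of the pathway, gave 1.19, 1.93 and 1.33 CPM against 4.98, 5.13 and 7.78 CPM. Of 22 genes of raffinose and starch metabolism 4 rose (18.18%), 2 without control replicate 1 or 3 and 1 without control replicate 2; none fell, but 3 did without mutant replicate 1 and 1 without mutant replicate 2. Of 16 genes of the unfolded protein response 1 rose (6.25%), and 3 without mutant replicate 1 or 3; it was BZIP60, whose call was lost without control replicate 1 (0.0796) or 2 (0.078). Of 19 glucosinolate genes 1 rose (5.26%) and 1 fell, and without mutant replicate 3 the counts were 3 and 4, without mutant replicate 1 or 2 they were 2 and 1, and without control replicate 1 or 2 they were 1 and 0. Of 8 sugar-starvation genes 1 fell, and none did without control replicate 1, 2 or 3; without mutant replicate 1 none fell and 3 rose. Of 5 precursors of trans-acting siRNAs none was called. A list with few calls is not shown to be unchanged: the median SE over all genes was 0.33 on the log2 scale.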

How the data were processed

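Strand-specific, ribosomal RNA-depleted single-end libraries of leaf RNA were analysed from the deposited gene table of estimated counts; kallisto 0.43.0 and the TAIR10 build are named in the submitters' processing notes, and how transcripts were summed to genes is not given in the sources used here. The estimated counts, as deposited, were rounded to whole numbers. Genes passed filterByExpr with a count minimum of 10, were scaled by TMM and were tested with edgeR 4.0.16 (R 4.3.3; quasi-likelihood fit on the 6 total RNA libraries, no covariate, 4 residual degrees of freedom). Of 34212 loci, 33437 matched the RefSeq annotation of TAIR10.1, from which symbols, classes and sequences came. DESeq2 1.42.0 and limma 3.58.1 were alternatives. No pair of replicates agreed within sampling noise. The p-values measure the spread between libraries, since the labels do not name separate plants. The exact permutation tests are two-sided. The comparison, gene lists and named genes were chosen with earlier results of these data known. Genes were named from sets: UPF1 and PAD4, the 15 largest called changes at each end, and each list's first entry and 6 members of smallest p. The 15 were taken among symbolled genes whose log2 CPM averaged 3 or more and whose groups were apart. Further sets were the 8 genes furthest above and below all others in a mutant library, and the most abundant genes. Not every gene of these sets is named above. The largest fall among the 15, FTM1, gave 20.1, 18.4 and 24.3 CPM in control leaves and 0.130, 1.28 and 2.98 CPM in the mutant. Its log2 fold change was -3.83 (SE 0.84, edgeR adjusted p = 0.0147), a call lost without control replicate 1 (0.0551) or 2 (0.0501). Other genes the text names were chosen after their values were seen. The script that fits was tested on simulated data. Some items are not reported here.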

Additional observations from a re-analysis of the deposited data

How the results depend on the processing

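The counts of 3107 higher and 2531 lower genes stayed within 1.5 times under other size factors, filters and tests (DESeq2 called 4022 and 3149). With a test against a 1.5-fold minimum, 1784 rose and 1110 fell. Leaving out 1 library gave between 1241 and 3430 higher and between 806 and 2679 lower genes. Without scaling, the median over all genes shifted on the log2 scale, from 0.03 to -0.13, and 45.5% of calls were higher against 55.1%. Deviations from the genotype mean correlated weakly between libraries of the same replicate number (0.117, -0.007 and 0.09). Between libraries of different numbers the correlations ran from -0.13 to 0.029. Whether replicate numbers pair the samples was not tested. With the replicate number as a block 2570 genes rose and 2340 fell, which kept 79.4% of the higher and 83.4% of the lower calls.

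Log2 fold changes turned for some genes set by 1 library. PR1 was at -0.21 with sample quality weights and -0.27 with the replicate block, and between -1.86 (no mutant replicate 2) and 4.95 (no mutant replicate 3) in fits that left out 1 library. PR5 was at -0.10 with quality weights and between -0.84 (no mutant replicate 2) and 3.90 in such fits, and EARLI1 between -0.57 (no mutant replicate 2) and 4.45. GRP7 was at -0.019 without scaling, -1.09 and -1.07 with limma-voom without and with quality weights, -0.55 with the block, and between -0.32 and 0.66 when 1 library was left out. RCA lay between -0.97 and 0.052 in those fits. The cause was not tested. The median of 10 of 45 lists changed sign under an alternative, the salicylic acid output list from 2.62 to -0.11 without mutant replicate 2. With 4 residual degrees of freedom and estimated counts, small changes and near-identical genes are resolved poorly.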

Other observations

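Some loci had no count in one genotype. In 31 loci every control library was at 0 and every mutant library held at least 10 counts, and in 3 loci the reverse held. The pseudogene AT2G07786 gave 95.0, 149.8 and 118.5 CPM in the mutant, at least 2193-fold above the floor of 3 counts per library. The mitochondrial locus ATMG00590 gave 71.8, 28.9 and 3.58 CPM, at least 629-fold. VEL2, of the VIN3 family that acts in silencing FLC, gave 0.614, 0.607 and 0.620 CPM, at least 11.1-fold, and IPT7, a cytokinin synthase, gave 0.576, 0.646 and 0.551 CPM, at least 10.7-fold. The floors cover counting error only, and not the split of estimated counts between near-identical loci. That split was not tested for AT2G07786 or ATMG00590, so their rises may not be those of the loci themselves.

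Mutant replicate 1 had genes of its own as well. SPL13B had no count there and lay between 7.16 and 12.1 CPM in the other 5 libraries. A split of its estimated counts with a similar gene was not tested. NIA1, a nitrate reductase, was at 8.91 CPM in mutant replicate 1 and between 36.6 and 48.6 CPM elsewhere. In replicate 3, MIPS2, which makes inositol phosphate, was at 84.5 CPM against 5.67 to 9.84 CPM, and the ammonium transporter AMT1;2 at 36.5 CPM against 1.63 to 4.40 CPM.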
